A study of Mus musculus with 30 samples.

Results

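The nuclear genes for the subunits of the mitochondrial respiratory chain and ATP synthase were followed across 30 RNA sequencing libraries of CD11b-selected cells from mouse lumbar spinal cord. Members were the genes whose symbols begin with Ndufa, Ndufb, Ndufc, Ndufs or Ndufv and a digit, with Uqcr, with Cox4 to Cox8 or with Atp5, together with Sdha, Sdhb, Sdhc and Sdhd. Symbols that stood on more than 1 row of the deposited table were left out. This gave 84 members among 24062 genes, 37 of complex I, 4 of complex II, 8 of complex III, 18 of complex IV and 17 of complex V. After a filter that kept genes with at least 1 FPKM (fragments per kilobase of transcript, scaled to library size) in at least 2 libraries, 79 members and 11759 genes in all were tested.

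All mice were C57BL/6J, and the labels name neither a sex nor an age. Mice on a fixed or an escalating regimen of morphine gave 4 and 3 libraries, and mice given saline on the same regimens gave 4 and 3. The doses are not in the labels. Sciatic nerve transection (SNT) gave 2 libraries at each of 1, 2, 4 and 7 days after injury, chronic constriction injury (CCI) gave 2 at each of 2 and 7 days, and spared nerve injury (SNI) gave 2 at 7 days. Another 2 libraries came from untreated, uninjured mice, which with the 7 saline libraries make up the 9 libraries titled as controls. Cells were taken after perfusion with cold PBS, myelin removal and magnetic CD11b selection, which also retains other myeloid cells that carry CD11b. The labels do not say that libraries of 1 group came from separate mice, so the p-values measure the spread between libraries, which may be partly technical.

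Oxidative phosphorylation passes electrons from NADH and succinate through complexes I to IV to oxygen and uses the proton gradient built on the way to drive ATP synthase, complex V. The complexes are mosaics: most subunits are encoded in the nucleus and imported, and a few subunits of complexes I, III, IV and V are encoded in mitochondrial DNA. Microglia, the resident macrophages of brain and spinal cord, can shift between respiration and glycolysis, and transcript levels of these subunits do not by themselves report respiration. No mitochondrially encoded gene (symbols beginning mt-) is in the deposited table, so only the nuclear share of each complex is described.

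The members were among the abundant transcripts of these cells. Averaged over the 12 group means, the median tested member stood at 67.3 FPKM, against 6.51 FPKM for the median tested gene. By complex the median level was 56.2 FPKM for complex I, 64.5 for complex II, 87.7 for complex III, 81.4 for complex IV and 89.0 for complex V. The highest members were Cox4i1 (360 FPKM), the largest nuclear subunit of cytochrome c oxidase, Cox8a (274), Atp5b (221), the catalytic beta subunit of ATP synthase, Cox6a1 (220) and Cox6b1 (199). The lowest tested members were Cox7a1 (0.63 FPKM), Cox6b2 (1.57), Atp5s (3.09), Cox6a2 (9.38) and Atp5sl (10.5). The product of Atp5sl, now named Dmac2, is known as an assembly component of complex I rather than a subunit of ATP synthase, and that of Ndufa4 is known to sit in complex IV. Both stay in the complex that their symbol names. The other 5 members did not pass the filter. Cox4i2 reached at most 0.271 FPKM and was listed at 0 in 26 libraries, Cox7b2 reached 0.681 and was at 0 in 28, Cox8b reached 0.271 and was at 0 in 29, and Cox8c and Ndufa4l2 were listed at 0 in all 30.

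The libraries did not part by group alone. Over the 11680 tested genes that are not members, 162 showed a gap of at least 1 on the log2 scale that parted 5 or more libraries from 5 or more others. The same division into 14 and 16 libraries was given by 34 of those genes, and no other division by more than 2. The 14 libraries were untreated 1 and 2, all CCI and SNI libraries, SNT day 7 replicate 2, the 4 fixed morphine libraries and escalating morphine replicate 1. The 16 libraries were all SNT libraries of days 1, 2 and 4, SNT day 7 replicate 1, the 7 saline libraries and escalating morphine replicates 2 and 3. No label names this division, and the files do not say what it stands for.

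The phosphatase subunit gene Ppp6r1 illustrates it, at 58.0 to 112 FPKM in the 14 libraries and 1.97 to 7.34 FPKM in the 16. The superoxide dismutase gene Sod1 ran the other way, at 18.3 to 40.2 FPKM in the 14 and 124 to 453 FPKM in the 16. Nnt, the mitochondrial transhydrogenase gene of which C57BL/6J mice are known to carry a partly deleted copy, stood at 20.2 to 47.7 FPKM in the 14 and 2.88 to 11.6 FPKM in the 16. A gene-level value does not show which exons were read. Among members, 4 had levels in the 16 libraries that lay wholly above those in the 14, where 0.952% of all tested genes did so, and 0 lay wholly below, where 3.49% did. The highest value in the 14 libraries and the lowest in the 16 were 106 and 131 FPKM for Cox6b1, 181 and 185 for Cox8a, 51.4 and 53.6 for Ndufa2, and 34.4 and 46.4 for Ndufb3. All 4 have main transcripts under 1000 bases. Of 830 tested genes that short, 85.9% were lower in the 14 libraries, as were 28.2% of 10845 longer ones. Among members, 45 of 46 short and 27 of 33 long ones were lower there. The part of length in the members' values was not tested.

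The division bears on every comparison below. Fixed morphine against fixed saline, and both saline groups against untreated, lie wholly across it, so in these the treatment and the division cannot be told apart from the groups' own libraries. The CCI and SNI groups lie in the 14 libraries, where 2 of their 9 controls are, and SNT days 1, 2 and 4 lie in the 16, where 7 are. For each comparison, the member median is also given with the division as a term in the fit, and within 1 side where both groups have libraries there. In the injury comparisons that term rests on the 2 untreated against the 7 saline controls and on the 2 libraries of SNT day 7. Relative depth also differed: the floor of detected values (the 5th percentile of non-zero FPKM times transcript length in kilobases) was 0.0906 to 0.245 in the 14 libraries and 0.226 to 0.582 in the 16, and genes at 1 FPKM or more numbered 9536 to 10427 and 8005 to 9987 on the same sides. Read counts were not used here, so absolute depth is unknown. Summed FPKM of 10 microglial markers (P2ry12, Tmem119, Cx3cr1 and others) was 9705 to 18557 over all 30 libraries, and that of 9 neutrophil markers 1804 to 62761. In bulk samples, fewer cells of a type and less RNA per cell cannot be told apart.

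**Figure D1:**
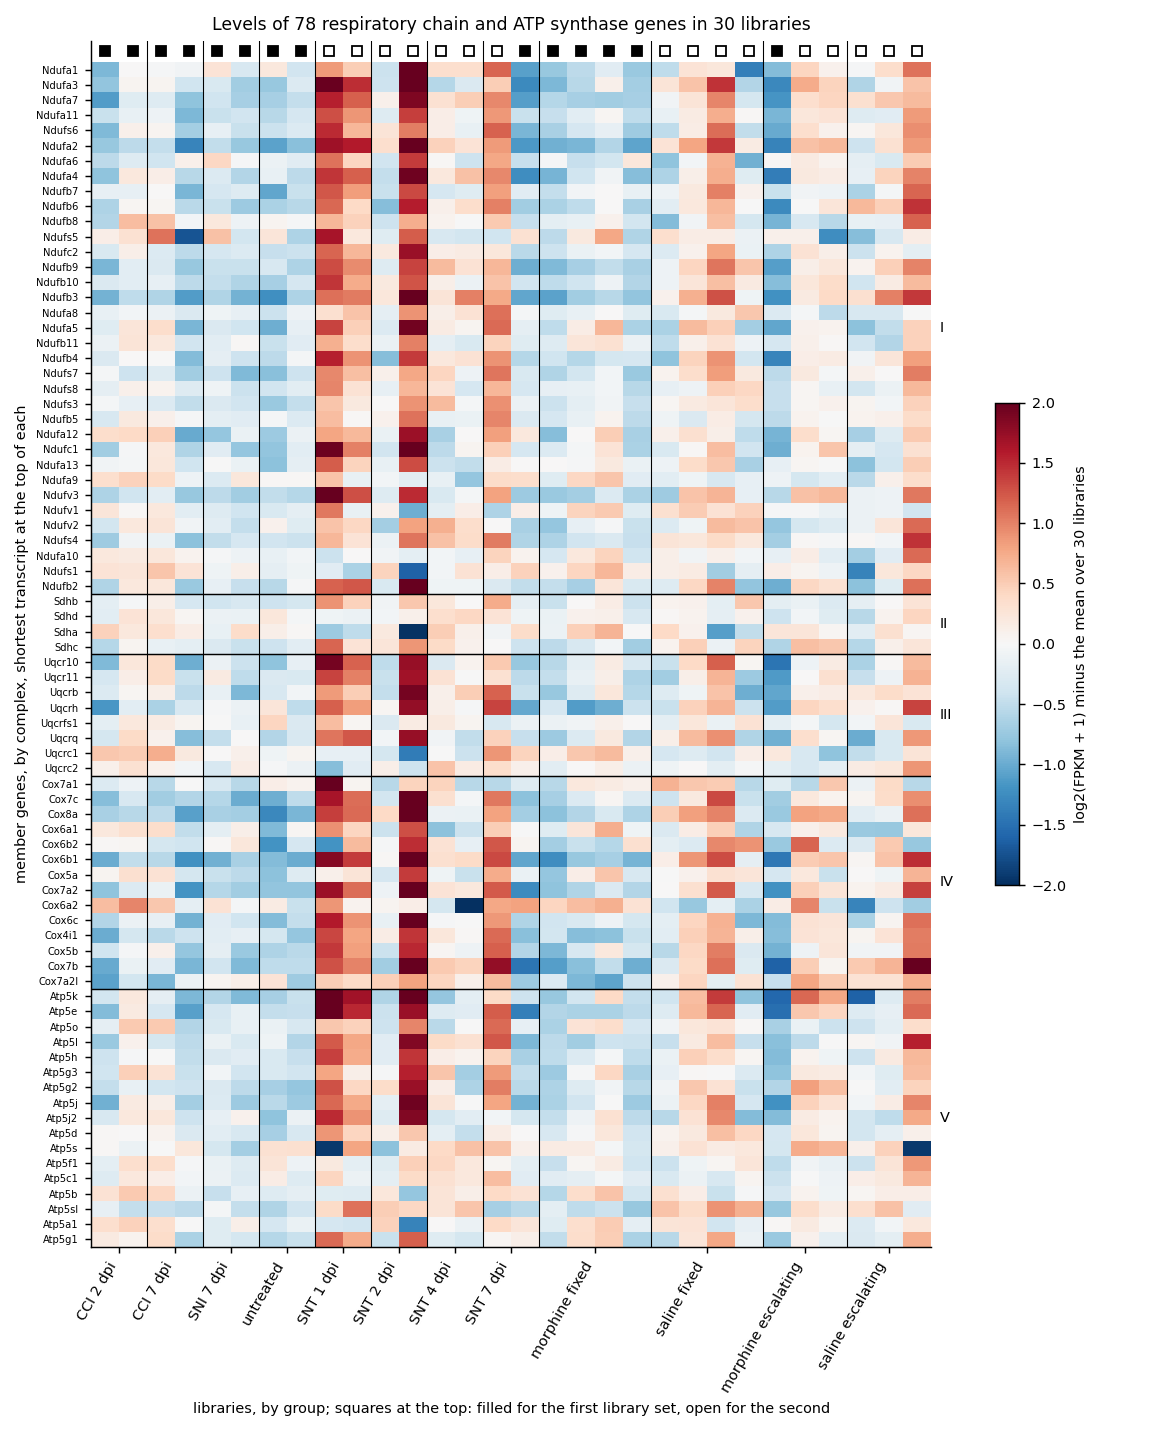
Levels of 78 of the 79 tested members in all 30 libraries, as log2(FPKM + 1) minus the member's mean over the libraries (colour scale, limited to 2 in each direction); members run down the page by complex, shortest transcript first within each, and libraries run across by group. Filled squares at the top mark the 14 libraries and open squares the 16 described in the text. Most members of all complexes but II are high in SNT day 1 replicate 1 and SNT day 2 replicate 2.

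Members differed widely in how much their level moved. Between the highest and the lowest of the 12 group means, the median member changed 2.91-fold. Among members above 5 FPKM, Atp5k, the small subunit e of the membrane part of ATP synthase, changed most, by 7.13-fold, with group means of 127 FPKM on SNT day 1 and 17.8 FPKM on SNI day 7. Most members are short genes: 46 of 79 (58.2%) have a main transcript under 1000 bases, where 7.11% of all tested genes with a known length do, and the median is 861 bases against 2950 bases. The length limit was chosen after values were seen.

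Ranges over the libraries differed between subunits of 1 complex. Sdha, the flavoprotein of succinate dehydrogenase, ran from 16.4 to 109 FPKM, with SNT day 2 replicate 2 at the low end and the other 29 libraries at 31.1 FPKM or more. Uqcrfs1, the Rieske iron-sulfur protein of complex III, stayed between 37.7 and 74.3 FPKM, and Atp5b between 125 and 322 FPKM. Ndufv1, which carries the NADH site of complex I, ran from 14.7 to 63.2 FPKM, and Ndufs1, the large iron-sulfur subunit, from 5.13 to 28.7 FPKM. Cox6b1, which faces the intermembrane space in complex IV, ranged more widely, from 54.7 to 713 FPKM, as did Atp5e, the epsilon subunit of the ATP synthase stalk, from 31.9 to 449 FPKM.

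Tissue and condition isoforms showed the general form throughout, with 1 exception in degree. Cox4i1 stood at 158 to 850 FPKM where Cox4i2, the hypoxia-linked form, was at or near 0. Cox7a2 stood at 21.8 to 217 FPKM where Cox7a1, the muscle form, reached 5.22 FPKM in a single library and was listed at 0 in 9. Cox6b1 exceeded the testis form Cox6b2 (0 to 5.35 FPKM) in every library. The 3 genes that encode an identical mature c subunit of ATP synthase were all present, with Atp5g2 giving 48.0% to 70.5% of their summed FPKM, Atp5g1 11.1% to 27.2% and Atp5g3 15.9% to 28.1%. The exception was Cox6a2, the heart and skeletal muscle form of subunit 6a, which was above 0 in all 30 libraries at 0.520 to 17.0 FPKM and made up 0.343% to 7.70% of the summed FPKM of Cox6a1 and Cox6a2. Muscle markers summed to 0 to 3.03 FPKM, and Myh1 was at 0 in all libraries. Exons of Cox6a2 overlap those of the integrin gene Itgad on the other strand. The library kit named in the labels does not mark strand, so reads of the 2 genes cannot be told apart there. Itgad itself was listed at 0 to 0.315 FPKM.

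Fixed morphine against fixed saline asks how a constant opioid regimen changes these cells, and it is the comparison in which members passed the test. Of 79 members, 8 had an adjusted p under 0.05 (limma on log2(FPKM + 1), adjusted over all 11759 genes), where 18.0% of all tested genes did. Cox6b1, Cox7a2l, Ndufa2, Ndufb3, Ndufb9, Ndufs7 and Atp5sl fell, where 4.46% of tested genes were called lower, and Cox6a2 rose, where 13.6% were called higher. The difference was negative for 67 of 79 members with a median of -0.38, beside a median of 0.22 over all tested genes. With the division of the libraries as a term, 0 of 79 members passed (0 also at an unadjusted p under 0.05, and 4 of all tested genes passed), the member median was 0.47, and 65 of 79 differences were positive. That term rests on the 1 and 2 escalating morphine libraries on either side, while the groups lie wholly across the division, and the direction of the members under fixed morphine turns with the term. Leaving out 1 library at a time also moved the count of members called: it was 4, 1, 2 and 4 without fixed morphine replicates 1, 2, 3 and 4, and 8, 2, 1 and 5 without fixed saline replicates 3, 4, 5 and 6. The share of all tested genes called in these fits is not given. These counts therefore do not show whether members moved more than other genes.

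Cox6b1 lies at chr7:30616861-30626151 on the minus strand (mm10) and Cox7a2l at chr17:83501918-83517330 on the minus strand. In complex IV, Cox6b1 stood at 62.5, 87.6, 93.3 and 77.6 FPKM in the fixed morphine libraries, against 163, 277, 369 and 131 FPKM in the fixed saline libraries. The groups did not overlap, and the untreated libraries, at 81.0 and 74.2 FPKM, stood with fixed morphine. The difference was -1.44 on the log2 scale (SE 0.446, adjusted p = 0.0404), and 0.52 with the division as a term. Cox7a2l stood at 109, 70.0, 62.9 and 98.4 FPKM in fixed morphine and 141, 178, 115 and 160 FPKM in fixed saline. Every fixed morphine library was below every fixed saline library, while untreated libraries held 158 and 79.8 FPKM. The difference was -0.82 (SE 0.268, adjusted p = 0.0490), and 0.30 with the term.

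Cox6a2 (chr7:128205435-128206387, minus strand) moved the other way. It stood at 11.2, 12.9, 13.8 and 10.1 FPKM in fixed morphine and 5.90, 4.42, 6.99 and 4.89 FPKM in fixed saline, without overlap. The difference was 1.00 (SE 0.292, adjusted p = 0.0328). With the term the difference was 1.11 with an adjusted p of 1. Untreated libraries held 9.19 and 5.72 FPKM. As a share of subunit 6a transcripts, Cox6a2 made up 5.05% ± 0.889 in fixed morphine and 2.81% ± 0.777 in fixed saline (SD, n = 4 each; exact permutation test, two-sided, p = 0.0286, the smallest it can give). The test uses the same libraries as the call above and cannot tell morphine from the division. The median share was 5.16% in the 14 libraries and 3.22% in the 16, with 7.70% and 2.66% in the untreated ones. Muscle markers summed to 0.177 to 0.495 FPKM in fixed morphine and 0.135 to 1.83 FPKM in fixed saline. Cox6a1 itself overlapped between the groups, at 172 to 337 FPKM in fixed morphine and 135 to 284 FPKM in fixed saline. Cox4i1, the most abundant member, averaged 207 ± 35.7 FPKM in fixed morphine and 390 ± 104 FPKM in fixed saline (SD, n = 4 each). Its difference of -0.88 missed the threshold (adjusted p = 0.0518) and was 0.23 with the term.

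In complex I, the called members were 3 accessory subunits and 1 core subunit. Ndufa2 stood at 36.5, 37.6, 47.6 and 34.0 FPKM in fixed morphine and 86.7, 124, 193 and 80.3 FPKM in fixed saline. Its exons overlap those of Tmco6 on the other strand. The groups were apart, and the difference was -1.54 (SE 0.417, adjusted p = 0.0244), the largest of any member in size, and 0.42 with the term. Ndufb3 (chr1:58586384-58595964, plus strand), of the membrane arm, stood at 22.9, 30.2, 33.4 and 28.3 FPKM in fixed morphine and 52.4, 81.3, 121 and 46.4 FPKM in fixed saline. These too were apart, with a difference of -1.27 (SE 0.370, adjusted p = 0.0325), and 0.23 with the term.

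Ndufb9 (chr15:58933756-58939488, plus strand), also of the membrane arm, stood at 33.7, 39.8, 44.6 and 40.2 FPKM in fixed morphine and 59.2, 85.6, 133 and 93.5 FPKM in fixed saline. The groups were apart, and the difference was -1.16 (SE 0.307, adjusted p = 0.0226), and 0.10 with the term. Ndufs7 (chr10:80249121-80256794, plus strand), which holds the last iron-sulfur cluster before the quinone, stood at 46.8, 55.3, 69.0 and 42.4 FPKM in fixed morphine and 74.9, 91.6, 128 and 81.7 FPKM in fixed saline. The highest fixed morphine library lay just under the lowest fixed saline library. The difference was -0.80 (SE 0.260, adjusted p = 0.0466), and with the term it was -0.20. The core subunits Ndufv1 and Ndufs1 differed by -0.24 and 0.48, with adjusted p-values of 0.378 and 0.313.

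Atp5sl (chr7:25619414-25625551, plus strand) was the member with the lowest adjusted p. It stood at 8.59, 6.70, 7.13 and 5.47 FPKM in fixed morphine and 15.3, 13.1, 19.3 and 16.9 FPKM in fixed saline, without overlap. Its main transcript of 2387 bases makes it the longest of the 8 called members. The difference was -1.11 (SE 0.262, adjusted p = 0.0145), and -0.09 with the term. It passed the test without any 1 of the 8 libraries, and untreated libraries held 6.20 and 7.43 FPKM. None of the 4 complex II members or the 8 complex III members passed at the adjusted threshold. Uqcrc1, a core protein of complex III, averaged 150 ± 28.6 FPKM in fixed morphine and 101 ± 17.7 FPKM in fixed saline (SD, n = 4 each), a difference of 0.56 (adjusted p = 0.11) that was -0.21 with the term. Sdha averaged 83.1 ± 22.4 FPKM in fixed morphine and 59.9 ± 25.6 FPKM in fixed saline (SD, n = 4 each), a difference of 0.53 (adjusted p = 0.201).

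By complex, the median difference under fixed morphine was -0.38 for complex I (31 of 36 negative), -0.19 for complex II (3 of 4), -0.14 for complex III (6 of 8), -0.59 for complex IV (12 of 14) and -0.20 for complex V (15 of 17). In all, 15 members had every fixed morphine library below every fixed saline library, where 7.49% of tested genes did, and 1 had every one above, where 22.1% did. Member length and direction went together, as they did over all genes: the median difference was -0.48 for the 46 short members and -0.16 for the 33 long ones, beside -0.48 for 830 short and 0.26 for 10845 long genes over the whole table. Cytosolic ribosomal protein genes, which are also short, had a median of -0.46 with 5 of 81 lower and 0 higher. Microglial markers were negative in 7 of 10, with Sall1 called higher and Siglech and C1qa lower, and their sum was 10028 to 12673 FPKM in fixed morphine and 15386 to 17868 FPKM in fixed saline, without overlap. Neutrophil markers were negative in 9 of 9 tested, with S100a8 and Camp called lower, and their sum overlapped between the groups at 1804 to 18502 FPKM in fixed morphine and 7295 to 28757 FPKM in fixed saline. None of the 9 was at 0 in all libraries, and the part of either cell type in the members' differences was not tested. Under scaling to a common sum (TPM) the member median was -0.10, with 3 called higher and 4 lower, while the median of all genes moved to 0.49. Of all genes tested under TPM scaling, 3031 were called higher and 281 lower. Under median-ratio scaling the member median was -0.60, with 0 higher and 13 lower and an all-gene median of 0.04. Of all genes tested under that scaling, 1031 were called higher and 783 lower.

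**Figure D2:**
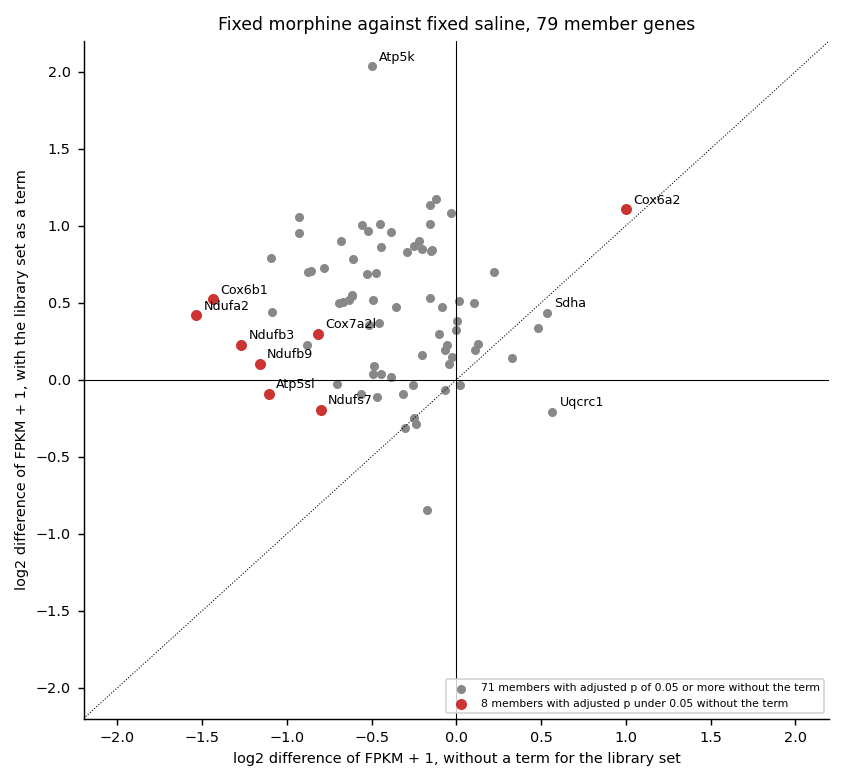
Log2 difference of FPKM + 1 between fixed morphine and fixed saline for each of the 79 tested members, without (horizontal axis) and with (vertical axis) the division of the libraries as a term; red points are the 8 members with an adjusted p under 0.05 without the term, and the dotted line marks equal values. Most points lie left of 0 without the term (67 of 79) and above 0 with it (65 of 79), and Cox6a2 lies near the dotted line at 1.00 and 1.11.

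Promoters of 3 members are printed because they stand for the different courses in these libraries. Cox6b1 fell under fixed morphine and was wholly parted by the division. Cox6a1 is the general form beside Cox6a2, and its levels overlapped between fixed morphine and fixed saline. Uqcrc1 is a long member with a positive difference that did not pass and was negative with the division as a term. Each is 300 bases, 250 before to 50 after the RefSeq start, from the GRCm38.p6 assembly and 5′ to 3′ on the gene's strand. Capitals mark matches, on either strand, to the core letters of motifs of factors known for such genes. For NRF1 these were GCATGCG. For ETS factors such as GABP the letters searched were CCGGAAG. The CCAAT box and the TATA box (TATAAA) were searched as named. For the GC box of SP1 the letters were GGGCGG, and for YY1 they were GATGGCG.
Cox6b1, chr7:30626065-30626364, minus strand: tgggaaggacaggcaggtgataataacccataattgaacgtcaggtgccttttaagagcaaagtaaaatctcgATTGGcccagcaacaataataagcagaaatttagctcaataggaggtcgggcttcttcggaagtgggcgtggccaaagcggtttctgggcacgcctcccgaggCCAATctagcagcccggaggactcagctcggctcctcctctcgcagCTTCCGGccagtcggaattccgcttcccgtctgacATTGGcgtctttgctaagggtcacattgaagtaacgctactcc
Cox6a1, chr5:115348909-115349208, minus strand: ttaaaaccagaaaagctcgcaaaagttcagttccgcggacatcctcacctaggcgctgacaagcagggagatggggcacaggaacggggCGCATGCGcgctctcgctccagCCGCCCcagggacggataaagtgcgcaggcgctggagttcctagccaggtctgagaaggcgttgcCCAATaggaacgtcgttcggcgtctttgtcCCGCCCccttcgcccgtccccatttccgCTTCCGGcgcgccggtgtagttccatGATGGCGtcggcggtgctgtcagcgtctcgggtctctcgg
Uqcrc1, chr9:108936398-108936697, plus strand: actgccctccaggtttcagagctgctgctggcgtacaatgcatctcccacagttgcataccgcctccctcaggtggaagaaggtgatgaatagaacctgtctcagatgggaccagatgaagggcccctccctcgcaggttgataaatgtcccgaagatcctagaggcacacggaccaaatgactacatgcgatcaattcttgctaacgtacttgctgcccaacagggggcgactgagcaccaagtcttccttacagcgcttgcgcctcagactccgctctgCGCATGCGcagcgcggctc
In these windows Cox6b1 holds 3 CCAAT boxes over both strands and 1 ETS core, Cox6a1 holds the cores of NRF1, ETS factors and YY1, a CCAAT box and 2 GC boxes, and Uqcrc1 holds the NRF1 core alone. The NRF1 core overlaps its own reverse complement, so both strands match together, and no other matches overlap here. RefSeq promoters were matched for 67 of the 79 tested members and for 9468 of all tested genes. The NRF1 core was in 16.4% of the member promoters and 7.56% of all, the ETS core in 23.9% and 21%, the CCAAT box in 44.8% and 43.5%, the TATA box in 7.46% and 8.8%, the GC box in 40.3% and 68.4%, and the YY1 core in 14.9% and 7.75%. A match describes letters in a window and does not show that a factor binds there.

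**Figure D3:**
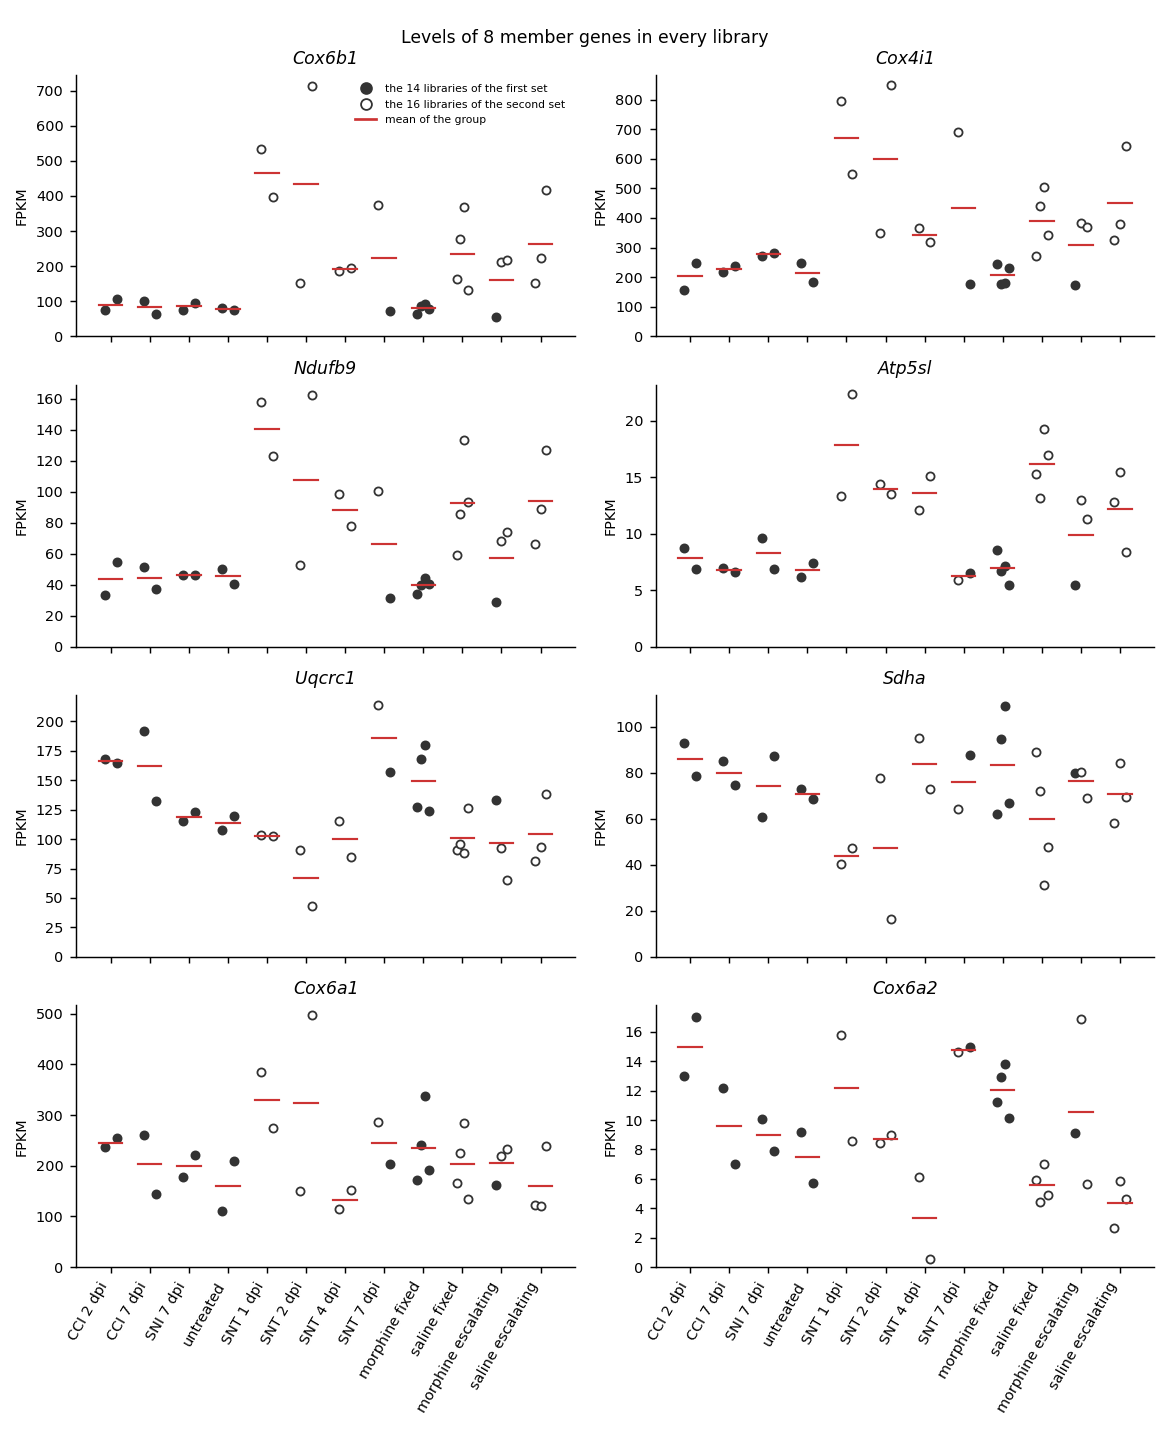
FPKM of 8 members in every library, by group (each panel has its own linear axis from 0; red bars are group means). Filled points are the 14 libraries and open points the 16; for Cox6b1 all filled points lie at or below 106 FPKM and all open points at or above 131 FPKM, while for Cox6a2 and Sdha the 2 kinds of point overlap.

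The genes that feed and assemble the chain were described from lists. Under fixed morphine 13.6% of all tested genes were called higher and 4.46% lower, and of 17 genes of the tricarboxylic acid cycle and pyruvate dehydrogenase, 4 rose and 1 fell. Idh3a, a subunit of isocitrate dehydrogenase, rose by 1.00, Dld by 0.94, Dlat by 0.90 and Ogdh by 0.89, while Idh3g, another subunit of that dehydrogenase, fell by 1.11 (adjusted p = 0.0475, 0.0322, 0.0449, 0.0258 and 0.0104). Of 45 assembly factors, Lrpprc (1.07) and Taco1 (0.71), which act on mitochondrially encoded subunits, rose, and Uqcc3 (-1.18), Cox14 (-1.04), Coa6 (-0.97) and Ndufaf3 (-0.80) fell. Of 12 carriers and partners, Ucp2, an inner membrane carrier abundant in macrophages, fell to 148, 150, 156 and 193 FPKM in fixed morphine, against 706, 592, 514 and 626 FPKM in fixed saline. That was a difference of -1.91 (adjusted p = 0.00531), and untreated libraries held 240 and 226 FPKM. Ucp2 was wholly parted by the division, at 148 to 240 FPKM in the 14 libraries and 365 to 869 FPKM in the 16, and so was Idh3g. Of 8 genes for peroxide and superoxide removal, Gpx4 fell (-0.87), and 0 of 11 regulators of biogenesis passed. All these lie across the same division. With it as a term, 0 genes of the 5 lists passed with limma (2 at an unadjusted p under 0.05), and the named genes had differences of 0.69 for Idh3a, 0.62 for Dld, 0.053 for Dlat, 0.14 for Ogdh, -0.04 for Idh3g, 0.58 for Lrpprc, 0.33 for Taco1 and -0.46 for Uqcc3. They were 0.024 for Cox14, -0.28 for Coa6, -0.02 for Ndufaf3, -0.23 for Ucp2 and 0.080 for Gpx4.

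Escalating morphine against escalating saline, the rising regimen, gave 0 members past the threshold with limma, where 0.0340% of tested genes passed, and 10 members at an unadjusted p under 0.05, where 19.2% of tested genes were. The median member difference was -0.25 with 60 of 79 negative, beside 0.16 over all genes. Ndufb6, of the membrane arm of complex I, stood at 12.6, 31.8 and 38.1 FPKM in escalating morphine and 50.6, 44.8 and 88.7 FPKM in escalating saline. The groups were apart, and the difference was -1.2 (SE 0.377, adjusted p = 0.131). Its exons overlap those of Smim27 on the other strand.

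Cox7b, of complex IV, stood at 8.30, 38.8 and 28.6 FPKM in escalating morphine and 39.8, 44.4 and 112 FPKM in escalating saline, a difference of -1.42 (adjusted p = 0.175). In both genes the lowest library was escalating morphine replicate 1, the group's single library among the 14. Cox6a2 averaged 10.6 ± 5.75 FPKM in escalating morphine and 4.37 ± 1.62 FPKM in escalating saline (SD, n = 3 each), with overlap and a difference of 1.04 (adjusted p = 0.138). Among members averaging at least 5 FPKM in either group, Cox6a1 (0.41) and Atp5k (0.40) were the next positive ones and Ndufb3 (-1.13) the next negative one. The Cox6a2 share of subunit 6a was 4.95% ± 2.42 in escalating morphine and 2.88% ± 1.51 in escalating saline (SD, n = 3 each; exact permutation test, two-sided, p = 0.2, smallest possible 0.1).

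In this comparison 7 members (Uqcrc2, Ndufb6, Cox7b, Atp5c1, Ndufv2, Ndufb8 and Uqcrb) had every morphine library below every saline library, where 5.02% of tested genes did. Within the 16 libraries, with 2 morphine and 3 saline libraries, the member median was -0.09 (38 of 79 positive) and 0 members passed with limma (2 at an unadjusted p under 0.05). The same median came from the fit with the division as a term. The fixed and the escalating responses were set against each other in an interaction test, where 0 members passed with limma (1 at an unadjusted p under 0.05, Uqcrc2, at 0.69 with an adjusted p of 0.357). Of all tested genes, 0.00850% passed and 11.7% had an unadjusted p under 0.05. The member median was -0.08, and 0.42 with the division as a term. Ndufa2 had the largest member difference between the responses, -1.25 (SE 0.636, adjusted p = 0.459), which was 0.051 with the term. Among members averaging at least 5 FPKM in 1 or more groups, Cox8a (-1.10) and Ndufa3 (-0.93) followed, and Ndufb8 (0.90), Uqcrc1 (0.69) and Uqcrc2 led the positive side. Ndufa2 passed when escalating morphine replicate 1 was left out.

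After nerve transection, the question is how the members move over the days in the cord segment that receives the injured nerve. On SNT day 1, 67 of 79 member differences from the 9 controls were positive, with a median of 0.85 beside -0.25 over all genes. No member passed the threshold with limma, where 0.0170% of tested genes passed, and 40 had an unadjusted p under 0.05, where 16.1% of tested genes did. Atp5k stood at 156 and 98.9 FPKM on SNT day 1, against a lowest of 9.17, a median of 22.6 and a highest of 80.9 FPKM in the controls. Both libraries lay above all 9 controls, and the difference was 2.13 (SE 0.627, adjusted p = 0.142). Ndufv3, an accessory subunit of the NADH-binding module, stood at 272 and 119 FPKM, against 28.9 to 101 FPKM in the controls. It too was apart, with a difference of 1.87 (SE 0.473, adjusted p = 0.129). Atp5e stood at 449 and 265 FPKM, against 66.2 to 209 FPKM in the controls, a difference of 1.77 (adjusted p = 0.163).

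In all, 18 members lay wholly above the controls on SNT day 1, where 1.90% of tested genes did, and Uqcrc2, a core protein of complex III, lay wholly below, at 21.2 and 33.4 FPKM against 33.8 to 73.0 FPKM in the controls, where 4.33% did. Sdha (-0.52) and Atp5a1 (-0.29), the alpha subunit of ATP synthase, were also negative without passing. By complex the median was 0.85 for complex I (33 of 36 positive), 0.29 for complex II (2 of 4), 0.78 for complex III (6 of 8), 0.97 for complex IV (13 of 14) and 0.67 for complex V (13 of 17). Within the 16 libraries, against the 7 saline controls, the median was 0.67 with 68 of 79 positive and 0 members passed with limma (21 at an unadjusted p under 0.05). With the division as a term it was 0.63. Ribosomal protein genes had a median of 1.05 with 78 of 81 positive and 0 called. Short members had a median of 1.00 and long ones 0.31, beside 0.54 for short and -0.29 for long genes over the whole table. Neutrophil markers were negative in 9 of 9, with none called, and summed to 2005 to 13444 FPKM on SNT day 1 and 5628 to 62761 FPKM in the controls, and their part in the members' differences was not tested. SNT day 1 replicate 1 had the fewest genes at 1 FPKM or more of all libraries, 8005.

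SNT day 2 rested on a single library. The median member difference was 0.56 with 65 of 79 positive, and 0 members passed with limma, as did 0 of all tested genes. At an unadjusted p under 0.05 there were 9 members and 7.33% of tested genes. Cox8a, the smallest subunit of complex IV, stood at 295 and 1042 FPKM on SNT day 2, against 91.0 to 480 FPKM in the controls. Replicate 1 lay inside the controls and replicate 2 above them, with a difference of 1.24 (adjusted p = 0.67). Ndufa2 and Atp5g2 followed, at 1.22 and 1.14. Sdha stood at 77.8 and 16.4 FPKM, against 31.1 to 89.0 FPKM in the controls, so replicate 2 was here the lowest of all 30 libraries. The difference was -0.79 for Sdha and -0.50 for Ndufv1, neither past the threshold. Without replicate 2 the member median was -0.14, and without replicate 1 it was 1.32. Replicate 2 was 1 of the 3 libraries with the fewest genes at 1 FPKM or more, 8763. It also had the widest gap between the medians of short and long members of all 30 libraries, 1.53 on the log2 scale. The part of either in the members' differences was not tested. With both replicates no member lay wholly above or below the controls, where 0.383% and 1.91% of tested genes did. The median was 0.44 within the 16 libraries and 0.38 with the term. Uqcrc1 averaged 66.7 ± 33.7 FPKM on SNT day 2 and 105 ± 19.6 FPKM in the controls (SD, n = 2 and 9), a difference of -0.72 (adjusted p = 0.67).

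On SNT day 4 the members stood near the controls. The median difference was 0.02 with 43 of 79 positive, beside 0.03 over all genes, and 0 members passed with limma (1 at an unadjusted p under 0.05, Cox6a2, where 2.34% of tested genes were), as did 0 of all tested genes. No member lay wholly above or below the controls, where 2.39% and 1.16% of tested genes did. Within the 16 libraries the median was -0.13, and with the division as a term -0.15. Complex II was positive in 4 of 4 members, with Sdha at 95.1 and 72.8 FPKM on SNT day 4 and 31.1 to 89.0 FPKM in the controls, which overlap, and a median of 0.30. Among members averaging at least 5 FPKM in either group, the largest positive differences were those of Sdha (0.39), Sdhd (0.36), its membrane anchor partner, and Ndufa5 (0.35), and the negative ones, after Cox6a2, those of Ndufa3 (-0.50) and Atp5e (-0.37). Cox6a2 stood at 6.13 and 0.520 FPKM, the second of which was the lowest of all libraries, against 2.64 to 9.19 FPKM in the controls (difference -0.95, adjusted p = 1).

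On SNT day 7 the 2 libraries lay on different sides of the division, and the member medians followed them. The median difference was 0.09 with 53 of 79 positive, beside 0.03 over all genes. It was -0.09 for replicate 2 against the 2 untreated libraries, 0.55 for replicate 1 against the 7 saline libraries and 0.28 with the division as a term. No member passed with limma, where 0.204% of tested genes did, and 3 had an unadjusted p under 0.05, where 8.88% of tested genes did. Cox6a2 and Uqcrc1 lay wholly above the controls, where 3.91% of tested genes did, and did so in both libraries. Cox6a2 stood at 14.6 and 14.98 FPKM on SNT day 7 and 2.64 to 9.19 FPKM in the controls, a difference of 1.31 (SE 0.435, adjusted p = 0.407). Uqcrc1 stood at 214 and 157 FPKM, against 81.6 to 139 FPKM in the controls, a difference of 0.82 (SE 0.280, adjusted p = 0.426). Atp5sl, at 5.88 and 6.54 FPKM on SNT day 7, was low in both libraries beside 6.20 to 19.3 FPKM in the controls, a difference of -0.86 (adjusted p = 0.523). Among members averaging at least 5 FPKM in either group, Ndufa5 (0.72) was the next positive one, and Ndufv2 (-0.53) and Ndufb3 (-0.46) were the next negative ones. The 4 SNT days were also compared with each other in an F-test, where 0 members passed with limma (10 at an unadjusted p under 0.05, led by Cox6a2 and Uqcrc1 with adjusted p-values of 0.343 and 0.346). Of all tested genes, 0.00850% passed and 11.5% had an unadjusted p under 0.05. Leaving out 1 SNT library leaves its day with a single library, so no conclusion is drawn from the count of members.

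**Figure D4:**
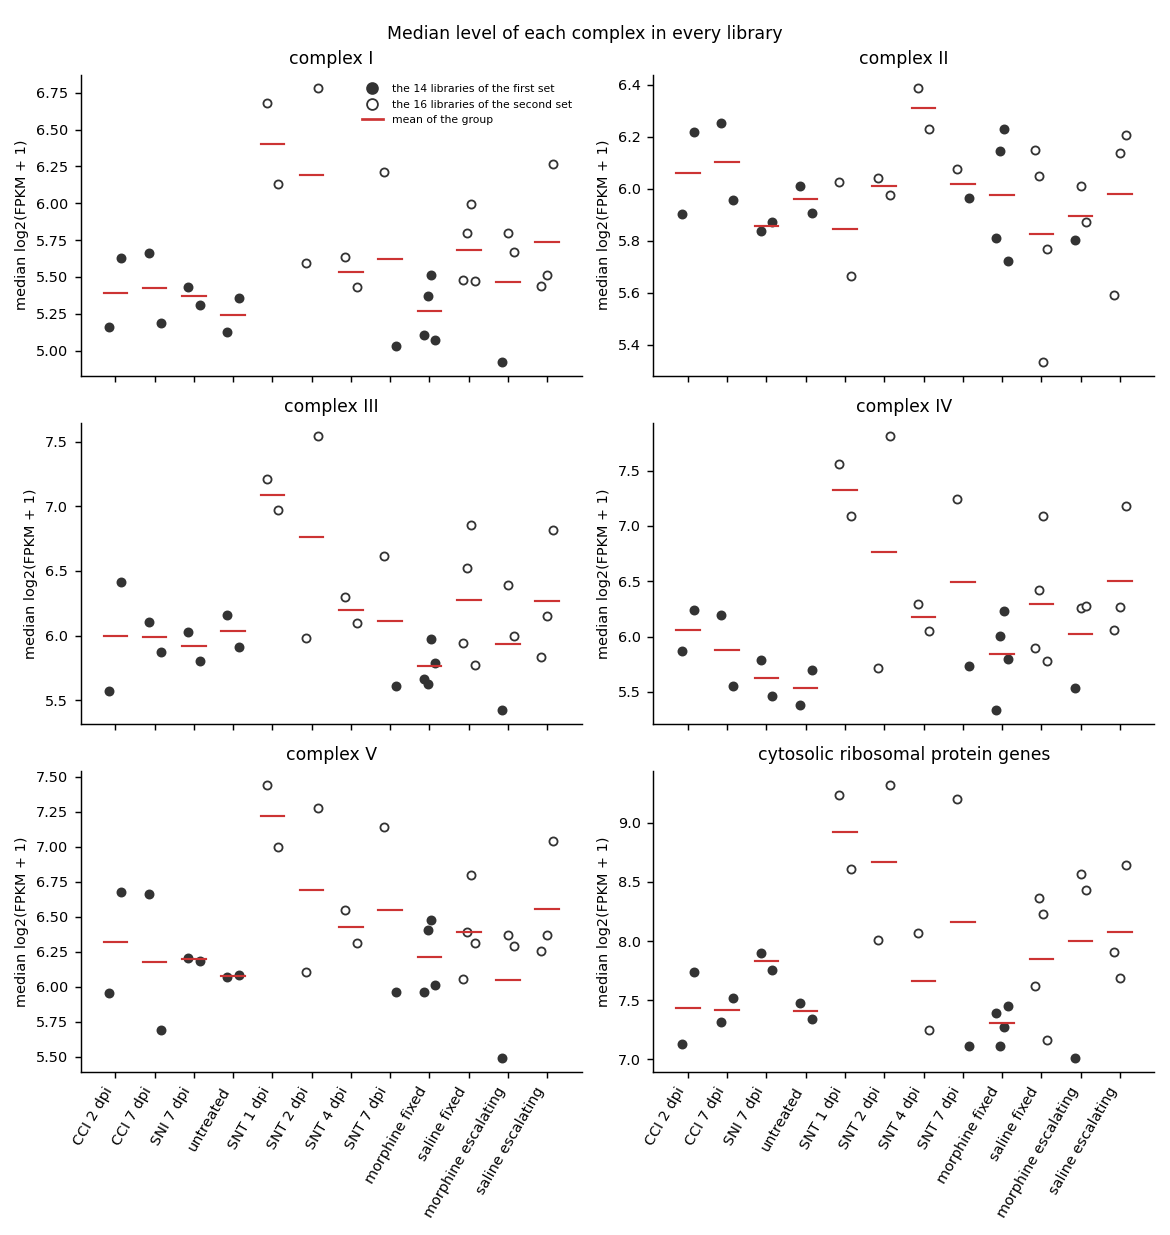
Median log2(FPKM + 1) of the tested members of each complex, and of the cytosolic ribosomal protein genes, in every library by group; red bars are group means and the axes do not start at 0. Filled points are the 14 libraries and open points the 16. SNT day 1 replicate 1 and SNT day 2 replicate 2 hold the 2 highest values for complexes I, III, IV and V, and complex II spans the smallest range, 5.33 to 6.39.

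Chronic constriction and spared nerve injury, which leave part of the nerve intact, were compared with the same 9 controls. On CCI day 2 the median member difference was -0.11 with 49 of 79 negative, and 0 members passed with limma, where 0.00850% of tested genes passed. At an unadjusted p under 0.05 there were 3 members and 10.7% of tested genes. Cox6a2 stood at 13 and 17.0 FPKM on CCI day 2, against 2.64 to 9.19 FPKM in the controls. Uqcrc1 stood at 168 and 165 FPKM, against 81.6 to 139 FPKM. Both members, with Atp5a1 (143 and 156 FPKM against 86.8 to 137 FPKM in the controls), lay wholly above the controls, where 8.66% of tested genes did, and 0 members lay wholly below, where 1.60% did. The differences were 1.32 for Cox6a2 (SE 0.435, adjusted p = 0.387), 0.68 for Uqcrc1 (SE 0.280, adjusted p = 0.423) and 0.46 for Atp5a1 (adjusted p = 0.602). Cox6a1, the general form beside Cox6a2, differed by 0.53.

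On the other side, Ndufb3 stood at 25.1 and 34.4 FPKM on CCI day 2, with the controls at 20.6 to 133 FPKM. The CCI libraries lay beside the 2 untreated controls, at 20.6 and 31.8 FPKM, and below all saline controls, at 46.4 FPKM or more. Its difference of -1.05 (adjusted p = 0.505) was 0.19 against the untreated controls alone. Cox6b1 (-1.0) turned likewise, to 0.20, and Cox7b differed by -0.92. Against those, within the 14 libraries, the member median on CCI day 2 was 0.25 with 64 of 79 positive (0.34 with the division as a term), 0 members passed with limma, and 7 had an unadjusted p under 0.05.

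CCI day 7 and SNI day 7 showed the same turn. On CCI day 7 the member median was -0.22 with 55 of 79 negative, and 0 members passed with limma, as did 0 of all tested genes. At an unadjusted p under 0.05 there were 1 member and 9.75% of tested genes. No member lay wholly above or below the 9 controls, where 8.40% and 0.927% of tested genes did. Against the untreated libraries alone the median was 0.15 with 66 of 79 positive, and with the division as a term it was 0.26. On SNI day 7 the median was -0.30 with 65 of 79 negative and 0 members passed with limma, as did 0 of all tested genes. At an unadjusted p under 0.05 there were 0 members and 4.06% of tested genes. Again no member lay wholly above or below the controls, where 1.52% and 1.56% of tested genes did. Against the untreated libraries alone the median was 0.07 with 53 of 79 positive, and with the term 0.18. Under TPM scaling the medians against all 9 controls were -0.03 for CCI and -0.10 for SNI. Cox6b1 averaged 82.3 ± 26.1 FPKM on CCI day 7 and 85.3 ± 13.5 FPKM on SNI day 7 (SD, n = 2 each), against 210 ± 122 FPKM in the 9 controls (SD) and 81.0 and 74.2 FPKM in the untreated ones. Its differences from all 9 controls were -1.15 (adjusted p = 0.555) and -1.07 (adjusted p = 0.999), and from the untreated ones 0.048 and 0.13. Uqcrc1 on CCI day 7 stood at 192 and 133 FPKM, a difference of 0.62 (adjusted p = 0.46), and Cox6a2 at 12.2 and 7.02 FPKM, a difference of 0.69 (adjusted p = 0.636). Ndufs1 differed by 0.59, Ndufb3 by -1.18 and Ndufa2 by -1.06. On SNI day 7 Cox6a2 stood at 10.1 and 7.92 FPKM, a difference of 0.65 (adjusted p = 0.999), ahead of Ndufa6 (0.36) and Cox6a1 (0.22), and Ndufb3 (-1.09) and Cox7b (-0.99) stood at the low end.

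The injuries were also set against each other on the same day, a comparison added after values were seen. On day 2, the median member difference of SNT from CCI was 0.73 (65 of 79 positive), and 0 members passed with limma, as did 0 of all tested genes. The median log2 level of the members was 5.75 and 7.07 in SNT replicates 1 and 2, and 5.60 and 5.92 in the CCI ones. SNT replicate 1 thus lay between the CCI libraries, and replicate 2 above both. At an unadjusted p under 0.05 there were 14 of 79 members and 17.9% of tested genes. Uqcrc1 stood at 90.5 and 42.9 FPKM on SNT day 2 and 168 and 165 FPKM on CCI day 2, a difference of -1.40 (SE 0.359, adjusted p = 0.22), the lowest p of any member here. In all, 19 members lay wholly above, where 10.8% of tested genes did, and 6 wholly below, where 34.8% did. These groups lie wholly across the division, and with it as a term the member median was 0.03. Under TPM scaling it was 0.38. Without SNT day 2 replicate 1 the SNT group holds a single library, so no conclusion is drawn from the count of members. On day 7 the medians were 0.30 for SNT against CCI, 0.39 for SNT against SNI and 0.12 for CCI against SNI, with 0 members past the threshold with limma in each, also at an unadjusted p under 0.05, and 0 of all tested genes. With the division as a term they were 0.031 for SNT against CCI (45 of 79 positive), 0.095 for SNT against SNI (46 of 79) and 0.12 for CCI against SNI. Under TPM scaling they were 0.0065 (40 of 79), 0.089 (49 of 79) and 0.12 (49 of 79). Leaving out a library of SNT day 7 likewise leaves a single one, so no conclusion is drawn from the count. Members wholly above and wholly below numbered 5 and 2 for SNT against CCI, where 12.9% and 11.2% of tested genes were, 23 and 1 for SNT against SNI, where 19.3% and 6.05% were, and 15 and 6 for CCI against SNI, where 26.1% and 4.82% were. The 1 member lower in SNT than in SNI was Atp5sl, which was also lower in SNT than in CCI. SNT day 7 replicate 2, the library on the same side as CCI and SNI, gave medians of -0.15 against CCI and -0.07 against SNI.

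The control libraries were themselves unlike. Fixed saline stood above untreated with a median member difference of 0.49 (64 of 79 positive), and escalating saline with 0.46 (69 of 79). Under TPM scaling these were 0.14 (46 of 79 positive) and 0.16 (53 of 79). No member passed with limma in either, where 0.544% and 0.153% of tested genes did. At an unadjusted p under 0.05 there were 10 and 12 of 79 members, near the 11.7% and 12.8% of all tested genes. In fixed saline 32 members lay wholly above both untreated libraries, where 13.1% of tested genes did, and in escalating saline 33, where 11.9% did. Ndufa9 and Atp5s lay wholly below in fixed saline, where 15.4% did. Short genes over the whole table were also higher. In fixed saline the median was 0.66 for short and 0.38 for long members, beside 0.60 for short and -0.02 for long genes. In escalating saline these were 0.62, 0.31, 0.49 and -0.15. The part of length in the members' differences was not tested. Cox8a stood at 315, 394, 444 and 185 FPKM in fixed saline and 194, 205 and 480 FPKM in escalating saline, against 91.0 and 118 FPKM in untreated. Ndufa2 differed by 1.61 in fixed saline (SE 0.559, adjusted p = 0.197), and Ndufb3 by 1.84 in escalating saline (SE 0.551, adjusted p = 0.146). Cox8a (1.61) and Cox6b1 (1.47) came with Ndufa2 in fixed saline, and Cox6b1 (1.63) and Cox7b (1.57) with Ndufb3 in escalating saline. Sdha, Cox6a2 and Ndufa1 were negative in fixed saline, at -0.34, -0.35 and -0.26, and Cox6a2, Uqcrc1 and Ndufs5 in escalating saline, at -0.67, -0.16 and -0.16. All saline libraries are among the 16 and both untreated ones among the 14. With the division as a term, which here rests on SNT day 7 and escalating morphine, the medians were -0.40 and -0.43, and saline and the division cannot be told apart.

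A set of 10 core members (Ndufv1, Ndufs1, Sdha, Sdhb, Uqcrc1, Uqcrfs1, Cox4i1, Cox5a, Atp5a1 and Atp5b) holds the redox centres, the catalytic sites or the largest nuclear subunits of their complexes. None of the 10 passed the threshold in any comparison with limma, and their lowest adjusted p was 0.0518, for Cox4i1 under fixed morphine. Their median difference was 0.08 on SNT day 1 (5 of 10 positive), where all 79 members had 0.85, and -0.32 on SNT day 2 (3 of 10 positive), where all had 0.56. On both days Cox4i1 was the highest of them, at 0.92 and 0.64, and Sdha the lowest, at -0.52 and -0.79. On CCI days 2 and 7 the core medians were 0.30 and 0.12, with Uqcrc1 highest at 0.68 and 0.62 and Cox4i1 lowest at -0.81 and -0.62. Under fixed morphine the core median was -0.03, with Uqcrc1 at 0.56 and Cox4i1 at -0.88 as the ends, and under escalating morphine it was -0.14, with Ndufs1 at 0.26 and Cox4i1 at -0.56. Sdhb, Uqcrfs1 and Cox5a differed by -0.31, -0.07 and -0.26 under fixed morphine, and Atp5b by -0.00. Most of these members have long transcripts, and the share of length in these values was not tested.

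**Figure D5:**
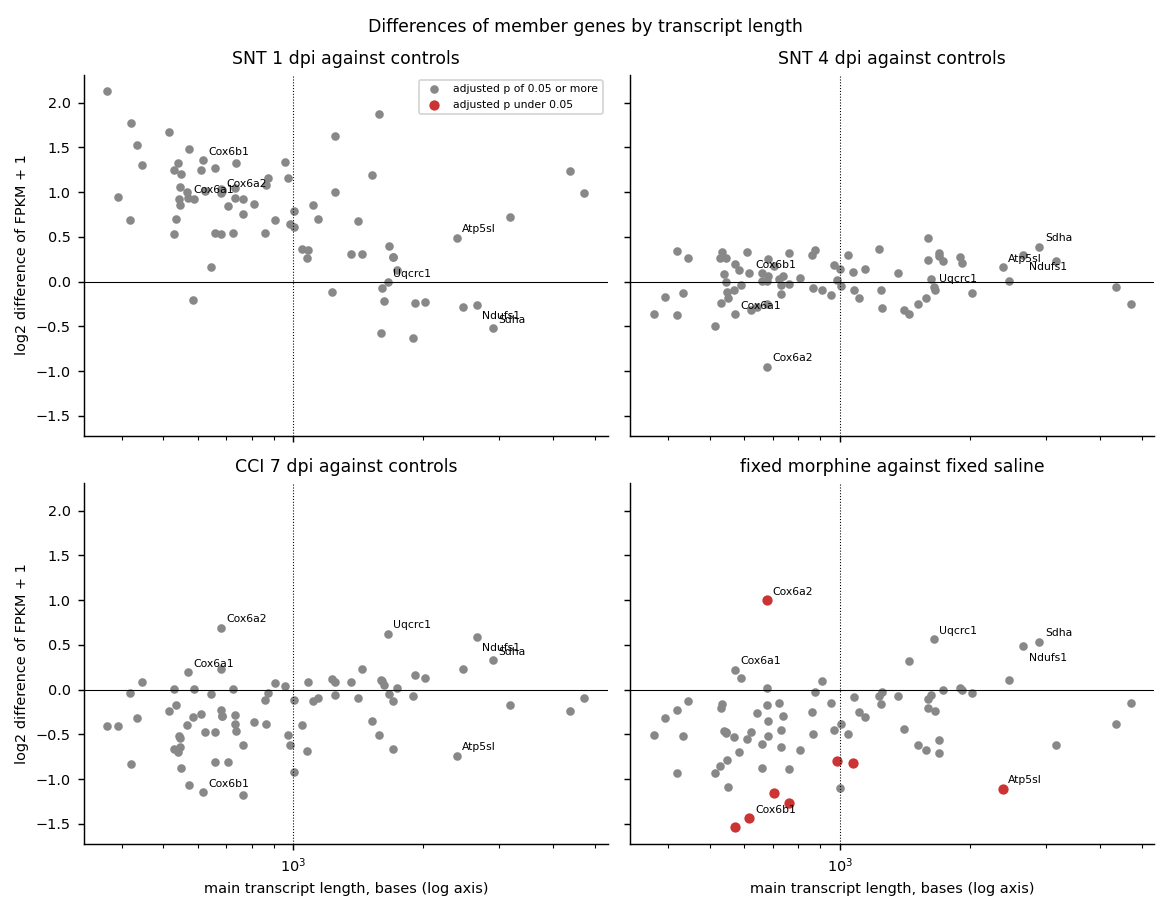
Log2 difference of FPKM + 1 against main transcript length (log axis) for the 79 tested members in 4 comparisons; the dotted line marks 1000 bases, and red points have an adjusted p under 0.05. On SNT day 1, 45 of 46 short members lie above 0 and 22 of 33 long ones do, while under fixed morphine 7 of the 8 red points lie below 0 and Cox6a2 lies above.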

How the data were processed

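CD11b-selected cells of mouse lumbar spinal cord were sequenced as Smart-Seq2 libraries, per the labels' protocols. The authors deposited 1 table of FPKM values per gene. The mm10 build and the tools featureCounts 1.4.6, HISAT2 2.0.5.1, DESeq2 and Cufflinks 2.2.1 are named per the submitters' processing notes; which tool made the FPKM values is not given in the sources used here. From 24888 rows, 826 rows of 281 repeated symbols were left out. Genes with at least 1 FPKM in at least 2 of 30 libraries were tested on log2(FPKM + 1) with limma 3.58.1 in R 4.3.3 (moderated tests with an intensity trend, two-sided, Benjamini-Hochberg over all tested genes, threshold 0.05), which was tested on simulated data. Fold changes on this scale understate those of low genes. In all, 17 comparisons were made: injuries against 9 controls in 23 libraries, morphine against its own saline and the difference of both responses in 14, saline against untreated in 30, the 4 SNT days by an F-test, and injuries of the same day, added after values were seen. The 7 injury groups share controls. Alternatives were another pseudocount, no filter, TPM and median-ratio scaling, untreated controls alone, a replicate block, leaving out libraries, and, added after values were seen, the division of the libraries as a term or within each side. Lengths, positions and overlaps came from the GENCODE annotation of mm10, with all 84 members matched, and promoters from RefSeq GRCm38.p6. Exons of 29 members overlap another gene. The FPKM file gives no counts, so depth is unknown and no counting interval is given. The members and lists were chosen with earlier results of these data known. The values of 1 member are not reported here on their own, though it stays in the counts over members. Apart from it, the text names core subunits, tissue isoforms, the 5 highest and 5 lowest members, and in each planned comparison all called members or, with fewer than 3, the 3 largest differences each way among members of at least 5 FPKM; other members singled out were chosen after their values were seen.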

Additional observations from a re-analysis of the deposited data

Results flagged for a closer look

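Of 78 checks of a member within a group of 4 or more libraries, 1 stood out by its gap to the nearest other library, and chance alone gives about 1 in 20. Among the 9 controls, Atp5g3, 1 of the 3 genes for the c subunit of ATP synthase, stood at 85.3 FPKM in escalating saline replicate 9, while the other 8 controls ran from 42.2 to 56.5 FPKM. That library also had the highest member median of the 9 controls, 6.68 on the log2 scale. Its neutrophil marker sum, 62761 FPKM, was the highest of all libraries. The part of either in the flagged value was not tested.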

How the results depend on the processing

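Depth is unknown without counts, and groups of 2 libraries limit every injury value. Fixed morphine gave 8 called members, where 18.0% of all tested genes were called, and 4 with no filter. It gave 13 with median-ratio scaling, all lower, where 783 of all tested genes were lower, and 0 with the division of the libraries as a term. With that term the median was 0.47 (Cox6b1 0.52, Cox7a2l 0.30, Ndufa2 0.42, Ndufb3 0.23, Ndufb9 0.10), 0.42 for the difference of responses (Ndufa2 0.051, Ndufa3 0.32), 0.34 on CCI day 2 (Ndufb3 0.23, Cox6b1 0.35, Cox7b 0.34), 0.26 on CCI day 7 (Ndufb3 0.10, Cox6b1 0.20, Ndufa2 0.16), 0.18 on SNI day 7 (Ndufb3 0.19, Cox6b1 0.28, Cox7b 0.27), -0.40 for fixed saline against untreated (Ndufa2 -0.36, Cox6b1 -0.66) and -0.43 for escalating saline (Cox6b1 -0.50, Cox7b -0.88, Uqcrc1 0.092, Ndufs5 0.53). Each of these turned sign, and the cause was not tested. Within the 16 libraries the SNT day 7 median was 0.55 and Ndufb3 0.080. Without the 3 libraries with the fewest genes, the median was -0.14 on SNT day 2 (Sdha 0.29, Ndufv1 0.029) and -0.40 on SNT day 7. In that setting saline against untreated gave 5 member calls for fixed and 2 for escalating. With all libraries 0.544% and 0.153% of all tested genes passed, and the shares without the 3 are not given. All 3 are SNT libraries, so the saline and untreated libraries stayed the same while the spread estimated over all groups changed. TPM scaling turned the medians of SNT day 7 (-0.01) and CCI day 2 (0.07), and median-ratio scaling those of SNT day 4 (-0.04), SNT day 7 (-0.02) and CCI against SNI (-0.08).

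Same-numbered libraries had correlations of -0.33 to 0.095 in their deviations from the group mean. In groups of 2 libraries both numbers give the same value, and for fixed morphine only numbers 3 and 4 could be checked. These few values cannot show whether the numbers pair libraries. The replicate block left 0 calls under fixed morphine. It rests there on numbers 3 and 4, the only ones both groups share, so it cannot show how far the calls hold. Under the block, with untreated controls alone and, for CCI and SNI, within the 14 libraries, values were the same: Ndufa3 0.087 and Atp5e 0.22 on SNT day 4, Ndufb3 0.78 on SNT day 7, Ndufb3 0.19 and Cox6b1 0.20 on CCI day 2, Ndufb3 0.063, Cox6b1 0.048 and Ndufa2 0.055 on CCI day 7, and Ndufb3 0.15 and Cox6b1 0.13 on SNI day 7. No paired analysis was possible because the groups share fewer than 2 numbers for escalating morphine, the difference of responses, and saline against untreated.

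Leaving out 1 library at a time gave the ranges below. In the SNT comparisons, the highest counts came from fits that leave an SNT day with a single library. For SNT day 2, between SNT days and SNT against CCI on day 2, that library is SNT day 2 replicate 2. It had 8763 genes at 1 FPKM or more and a gap of 1.53 between short and long members. The share of all tested genes called in these fits is not given. The counts therefore do not show whether members moved more than other genes. Calls numbered 0 to 3 on SNT day 1, 0 to 24 on SNT day 2, 0 to 7 between SNT days, 0 to 32 for SNT against CCI on day 2, 0 to 1 for SNT against CCI on day 7, 0 to 1 for the difference of responses and 1 to 8 under fixed morphine. The median ran from -0.14 to 1.32 on SNT day 2 (Sdha -1.88 to 0.29, Ndufv1 -1.03 to 0.029) and from -0.40 to 0.68 on SNT day 7 (Ndufb3 -1.35 to 0.43). Cox6a2 on SNT day 4 ran from -2.06 to 0.17, Atp5k under escalating morphine from -0.27 to 1.25, Ndufs5 in escalating saline from -0.58 to 0.27 and Ndufa1 in fixed saline from -0.56 to 0.088.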
